A study of Mus musculus with 6 samples.

Results

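Dividing cells make the transcripts of replication shortly before and during S phase and those of mitosis later, in G2 and M. The genes described here are 43 such proliferation genes of the mouse, a list of well-known replication and mitosis genes taken by symbol, out of 34656 genes in the series. They comprise 21 genes of S phase (entry from G1, origin licensing and the replicative helicase, the fork, nucleotide supply) and 22 of mitosis (control of the G2/M step, mitotic kinases and the spindle checkpoint, kinetochore and spindle, anaphase and cytokinesis, chromosome structure). All 43 symbols were found, each with 1 transcript accession.

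The study compared primary myoblasts with Sfpq deleted in skeletal muscle (SFPQ_KO, n = 3) with control myoblasts (Cont, n = 3). Sfpq encodes a nuclear protein that binds RNA and DNA and works in splicing and transcription. Cells of both groups came from the skeletal muscle of male mice aged 1 month, were grown as myoblasts in F-10 with fetal bovine serum (20%) and bFGF (2.5 ng/mL), and were then kept for 4 days in DMEM with 2% horse serum, in which myoblasts fuse into myotubes. Their polyA RNA was read on an Ion Proton sequencer. The Cre driver, the deleted exons and the genotype of the Cont mice are not stated in the labels. Nor do these tie single libraries to separate animals, so that the spread between replicates may be partly technical. The values are TPM, a transcript's share of its library on a scale with the same total in every library, deposited per transcript and summed per gene.

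Entry into S phase is driven by cyclin E with its kinase partner and by E2F factors, which switch on the genes for the MCM helicase, the polymerase clamp and the enzymes that make deoxynucleotides. Genes of mitosis peak later. In dividing cells the MuvB complex, with B-Myb and FoxM1, activates them through an element called CHR and nearby CCAAT boxes bound by NF-Y, and in resting cells MuvB is part of the DREAM complex, which represses them. Myoblasts leave the cell cycle before they fuse, so in a differentiated culture these transcripts are low, and those that remain can come from cells that have not fused.

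The promoters are shown because the genes of mitosis varied together across the libraries. For each class the sequence is that of the 3 genes with the highest mean TPM among those with an entry in a RefSeq promoter table of GRCm38.p6. Each runs 5′ to 3′ over the 250 bases before the annotated start, in lower case, with matches to the searched motifs in capitals. The motifs, searched on both strands, were CHR (TTTGAA or TTCGAA), the CCAAT box (CCAAT) and E2F (TTTCCCGC, TTTCGCGC, TTTGCCGC or TTTGGCGC). The mitotic genes are Ube2c (chr2:164769679-164769928, plus strand), Cdk1 (chr10:69352913-69353162, minus strand) and Cdc20 (chr4:118437344-118437593, minus strand).
Ube2c: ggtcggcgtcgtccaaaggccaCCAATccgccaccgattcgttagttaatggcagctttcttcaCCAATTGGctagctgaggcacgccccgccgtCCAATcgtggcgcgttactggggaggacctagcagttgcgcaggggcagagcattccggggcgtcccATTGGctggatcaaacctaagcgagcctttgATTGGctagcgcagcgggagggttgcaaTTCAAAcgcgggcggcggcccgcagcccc
Cdk1: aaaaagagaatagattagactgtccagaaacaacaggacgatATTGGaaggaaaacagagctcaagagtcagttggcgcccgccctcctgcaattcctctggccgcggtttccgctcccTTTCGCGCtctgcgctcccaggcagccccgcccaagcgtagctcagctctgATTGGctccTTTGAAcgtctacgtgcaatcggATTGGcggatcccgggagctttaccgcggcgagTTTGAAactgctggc
Cdc20: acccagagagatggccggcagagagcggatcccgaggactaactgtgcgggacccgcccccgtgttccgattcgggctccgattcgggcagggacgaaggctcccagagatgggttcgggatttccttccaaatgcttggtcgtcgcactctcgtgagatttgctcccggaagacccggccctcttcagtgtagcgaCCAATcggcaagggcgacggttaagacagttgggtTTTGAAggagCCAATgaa
The S-phase genes are Pcna (chr2:132253181-132253430, minus strand), Rrm1 (chr7:102441445-102441694, plus strand) and Rrm2 (chr12:24708004-24708253, plus strand).
Pcna: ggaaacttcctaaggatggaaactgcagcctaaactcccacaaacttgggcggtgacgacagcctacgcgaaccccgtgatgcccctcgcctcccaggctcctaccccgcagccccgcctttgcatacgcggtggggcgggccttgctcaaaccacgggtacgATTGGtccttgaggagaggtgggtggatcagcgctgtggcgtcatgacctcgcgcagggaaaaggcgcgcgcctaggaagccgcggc
Rrm1: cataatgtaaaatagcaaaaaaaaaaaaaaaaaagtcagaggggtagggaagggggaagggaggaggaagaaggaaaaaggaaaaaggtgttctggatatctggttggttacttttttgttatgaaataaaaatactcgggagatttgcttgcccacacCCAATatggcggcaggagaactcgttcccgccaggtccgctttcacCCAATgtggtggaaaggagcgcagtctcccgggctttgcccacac
Rrm2: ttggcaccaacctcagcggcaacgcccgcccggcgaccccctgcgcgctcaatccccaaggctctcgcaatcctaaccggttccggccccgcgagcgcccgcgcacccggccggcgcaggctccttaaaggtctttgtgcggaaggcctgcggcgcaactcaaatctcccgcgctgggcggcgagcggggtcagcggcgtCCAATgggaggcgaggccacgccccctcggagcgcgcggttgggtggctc

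All 3 mitotic promoters held a CHR match close to the start, with its first base 29 bases upstream in Ube2c, 15 in Cdk1 (with another at 71) and 18 in Cdc20. None of the 3 S-phase promoters held one, and each held 1 or 2 CCAAT boxes. In Ube2c a pair of CCAAT matches on opposite strands overlap and are counted separately. The table covered 35 of the 43 genes, and Aurkb, Ccne2, Tpx2, Gins2, Ccna2, Foxm1, Kif20a and Mcm4 had no entry. A CHR match stood upstream of 9 of 17 mitotic genes (52.9%) and 4 of 18 S-phase genes (22.2%), against 19.6% of the 27025 genes of the table. A CCAAT box stood upstream of 15 of 17 mitotic genes (88.2%) and 9 of 18 S-phase genes, against 37.5% of all genes. An E2F match was found in 1 of 17 mitotic genes (5.88%) and 4 of 18 S-phase genes (22.2%: Cdc6, Mcm5, Mcm6 and Mcm7), against 2.16% of all genes. The median ratio of mean TPM, SFPQ_KO over Cont, was 0.591 over the 9 mitotic genes with a CHR match and 0.481 over the 8 without. On the log2(TPM + 1) scale the order was the other way, with a median difference of −0.64 with a match and −0.54 without.

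Sfpq itself had 18.3, 19.3 and 14.1 TPM in SFPQ_KO cells, against 48.6, 60.5 and 49.9 TPM in Cont cells. The groups did not overlap, in the direction the labels give (log2 difference −1.57, limma adjusted p = 0.0531, so Sfpq did not pass at 0.05). Each library had 12216 to 12484 genes at 1 TPM or more, and TPM keeps no record of read depth, so that depth is unknown. Markers of myotubes were high in both groups, with a summed level of 68890 to 75880 TPM in SFPQ_KO cells and 65760 to 72250 TPM in Cont cells over 10 genes. The 7 myoblast markers summed to 901 to 994 TPM in SFPQ_KO cells and 589.9 to 1018 TPM in Cont cells, most of it Myod1 and Cdh15. These 2 had a higher mean in SFPQ_KO cells, and the other 5 had a lower one. By their RNA both groups were thus rich in differentiated muscle cells, although their source is given as primary myoblasts. Of other cell types, the 8 fibroblast markers summed to 154 to 216 TPM in SFPQ_KO cells and 198 to 293 TPM in Cont cells, nearly all of it Col3a1 and Col1a1, with Tcf21 at 0 in every library. The 6 macrophage and leukocyte markers summed to 1.23 to 2.15 TPM in SFPQ_KO cells and 1.28 to 2.09 TPM in Cont cells, most of it Cd68 and Itgam, with Ptprc and Adgre1 at 0. Emcn, an endothelial gene, was also at 0 throughout, and the summed endothelial, adipocyte and Schwann cell markers stayed under 1.5 TPM.

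Across the 43 proliferation genes the mean level was lower in SFPQ_KO cells than in Cont cells for 41, and higher for 2, E2f8 and Gins2. All 22 mitotic genes were among the 41. Of the 14581 genes with a mean of 0.25 TPM or more, 64.3% were lower and 35.7% higher, so the background leaned the same way. The ratio of the group means had a median of 0.648 over the 43 genes, against 0.944 over the 14581 genes. All 3 SFPQ_KO libraries lay below all 3 Cont libraries for 23 of the 43 genes, and above them for none. The same separation was seen for 14.8% of the 14581 genes in the lower direction and for 4.25% in the higher direction. No gene of the series passed limma's test at an adjusted p of 0.05 in either direction (0.0% lower and 0.0% higher of 12461 tested), and so no proliferation gene did. At an adjusted p under 0.1 the shares were 0.169% lower and 0.0562% higher, again with no proliferation gene. The adjusted p of the 39 tested proliferation genes ran upward to 0.992, and the smallest, 0.266, was that of Foxm1. At an unadjusted p under 0.05, 16 of them were lower and none higher, 13 mitotic and 3 of S phase, against 9.62% and 2.68% of all tested genes. Bub1, Cenpf, Cenpe and Cdc6 fell short of the filter of 1 TPM in 3 libraries, and 10 mitotic genes passed it only with the help of Cont libraries. Counts and medians of differences and ratios are therefore over all members unless said to be over the tested ones. Of those 10, Ccna2, Ccnb1, Foxm1, Aurkb, Bub1b, Nusap1 and Mki67 are among the 13 at an unadjusted p under 0.05. That count therefore cannot be weighed against the shares of all tested genes.

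The lean of the background bears on these counts. With the libraries scaled by the median of gene ratios, 9 of 22 mitotic genes and 2 of 21 S-phase genes were separated in the lower direction, against 8.67% of all genes. On the deposited scale the counts were 15 of 22 and 8 of 21. The 11 genes separated on both scales were Ccnb1, Foxm1, Plk1, Bub1, Bub1b, Cenpf, Cenpe, Kif20a and Mki67 of mitosis, and Mcm4 and Rrm1 of S phase.

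**Figure D1:**
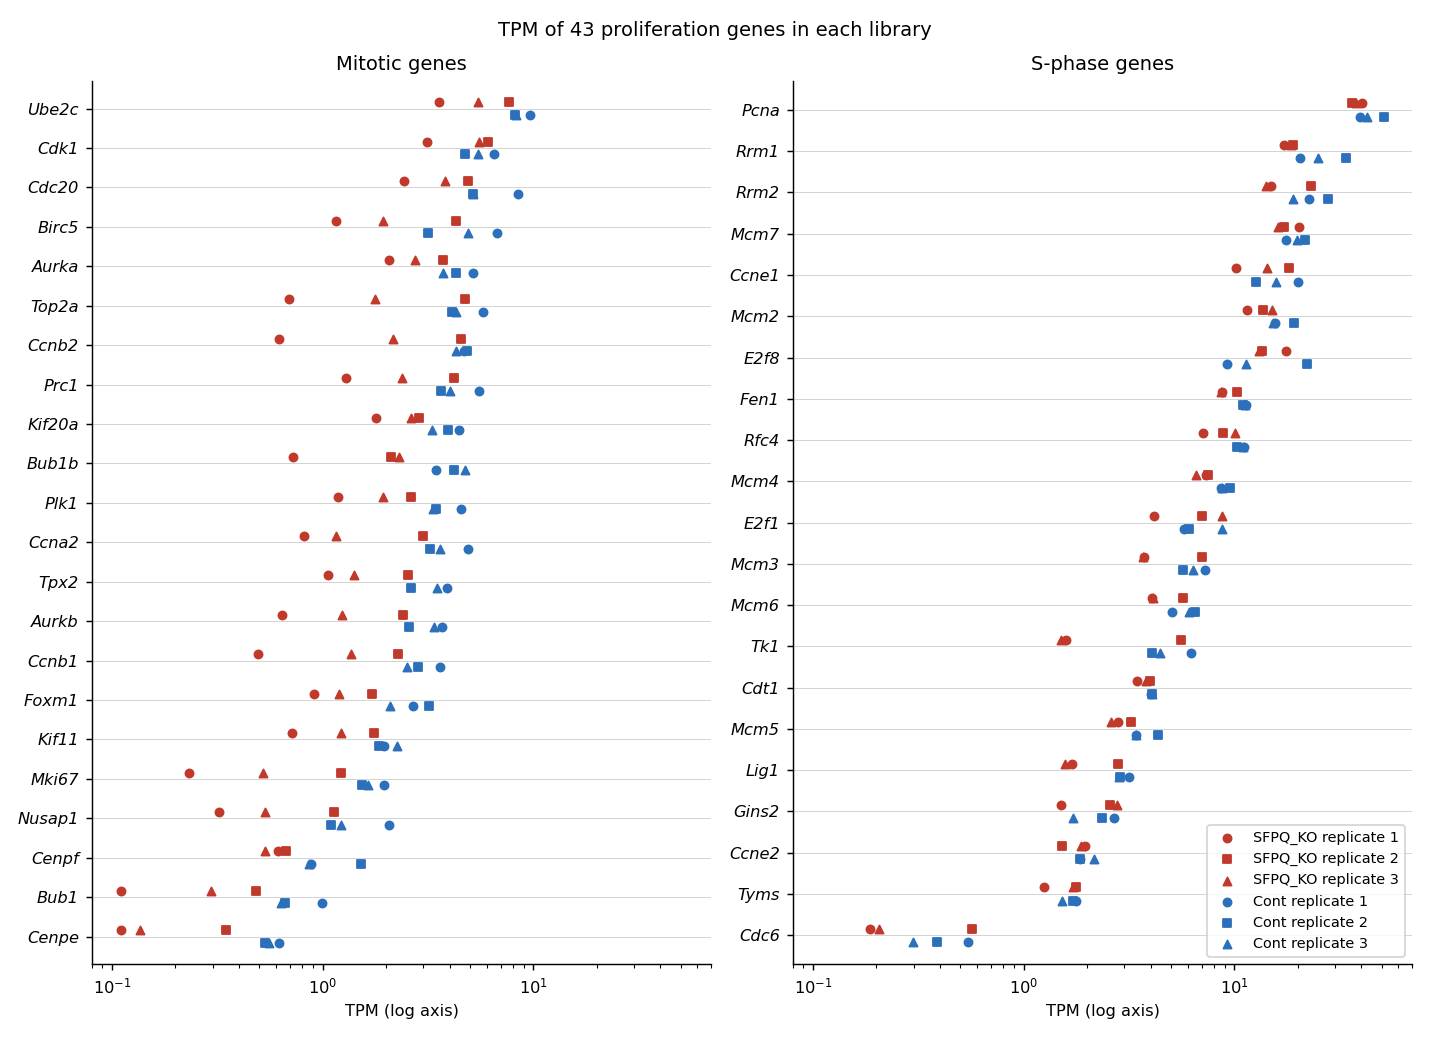
TPM of each of the 43 genes (log axis) in the 3 SFPQ_KO libraries and, just under them in each row, the 3 Cont libraries, with mitotic and S-phase genes in separate panels. SFPQ_KO replicate 1 is the lowest of the 6 libraries for 21 of 22 mitotic genes, while the points of most S-phase genes lie close together.

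The 3 SFPQ_KO libraries did not stand at the same level. SFPQ_KO replicate 1 was the lowest of all 6 libraries for 21 of the 22 mitotic genes, Cenpf being the exception. SFPQ_KO replicate 2 was the highest of the 3 SFPQ_KO libraries for 21 of 22, with Bub1b the exception, and it lay within the Cont range for 7 of them. Cont replicate 1 was the highest of all 6 libraries for 17 of 22. Over the 14581 genes, SFPQ_KO replicate 1 was the lowest of all 6 libraries for 2847. SFPQ_KO replicate 2 was the highest SFPQ_KO library for 5188 of them, and Cont replicate 1 the highest of all 6 for 2302. The summed level of the mitotic genes was 24.7, 65.3 and 42.3 TPM in SFPQ_KO cells, against 92.1, 71.4 and 73.8 TPM in Cont cells. On the deposited scale the lowest Cont library was thus only a little above SFPQ_KO replicate 2 and far above SFPQ_KO replicate 1. Median-of-ratios scaling raises SFPQ_KO replicate 2 relative to every Cont library. Whether its mitotic sum stays below the Cont sums on that scale was not tested. The ratio of the mean sums was 0.557 with all libraries, 0.680 without SFPQ_KO replicate 1, 0.423 without SFPQ_KO replicate 2 and 0.607 without Cont replicate 1. Leaving out SFPQ_KO replicate 3 gave 0.569. Separation followed the same library. Without SFPQ_KO replicate 2, 21 of 22 mitotic and 13 of 21 S-phase genes were separated in the lower direction, against 23.9% of all genes. Without SFPQ_KO replicate 1 the counts were 15 and 10 (all genes 20.9%), and without SFPQ_KO replicate 3 they were 15 and 8 (19.5%). Without Cont replicates 1, 2 and 3 in turn, 15, 17 and 17 mitotic genes and 10, 8 and 8 S-phase genes were separated, against 24.2%, 23.3% and 17.7% of all genes.

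Some markers of unfused myoblasts and of fibroblasts showed a similar order of the SFPQ_KO libraries, with replicate 2 the highest. Myf5, a regulator made by myoblasts, had 17.4, 36.0 and 17.1 TPM in SFPQ_KO cells, against 39.9, 33.2 and 35.4 TPM in Cont cells. Vcam1, an adhesion molecule of muscle stem cells, had 4.93, 9.42 and 5.78 TPM in SFPQ_KO cells, against 9.25, 8.85 and 10.9 TPM in Cont cells. Col1a1, a fibrillar collagen, had 11.1, 24.9 and 11.6 TPM in SFPQ_KO cells, against 30.3, 35.9 and 75.9 TPM in Cont cells. SFPQ_KO replicate 2 was within the Cont range for Myf5 and Vcam1 and below it for Col1a1, and the other SFPQ_KO libraries were lower. The order of the Cont libraries was not shared, since Cont replicate 1 was the highest of them for Myf5 but the lowest for Col1a1. SFPQ_KO replicate 2 was the highest SFPQ_KO library for 5 of the 7 myoblast markers and 5 of the 8 fibroblast markers, against 5188 of the 14581 genes. Of the fibroblast markers, Lum and Tcf21 were at 0 in every SFPQ_KO library. Pax7, which marks muscle stem cells, was less spread, with 13.9, 16.4 and 11.5 TPM in SFPQ_KO cells and 15.2, 19.6 and 20.4 TPM in Cont cells. Myod1, the myogenic master regulator, did not show that order, with 604, 596 and 569 TPM in SFPQ_KO cells and 274, 619 and 506 TPM in Cont cells. Nor did the myoblast marker Cdh15 and the fibroblast marker Dcn, in which SFPQ_KO replicate 2 was the lowest SFPQ_KO library. Cdh15 had 352, 241 and 310 TPM in SFPQ_KO cells, against 247, 335 and 197 TPM in Cont cells. Dcn had 0.711, 0.442 and 0.674 TPM in SFPQ_KO cells, against 4.39, 0.787 and 0.493 TPM in Cont cells. The part of these markers in the mitotic result was not tested, and in bulk RNA fewer dividing cells and less RNA per cell cannot be told apart.

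**Figure D2:**
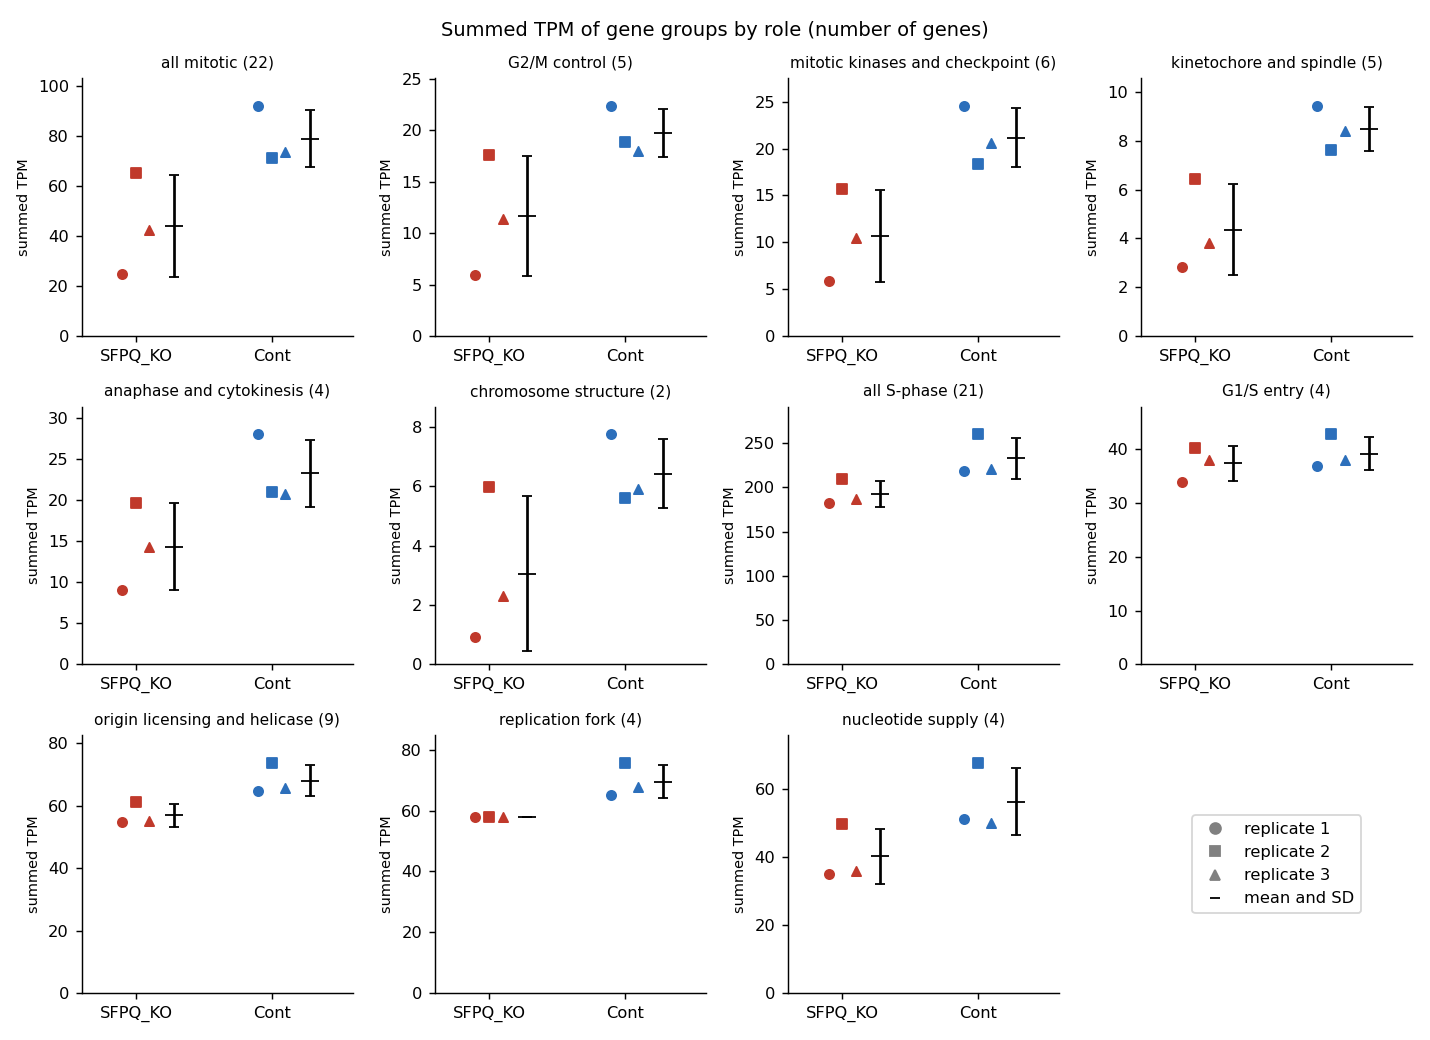
Summed TPM of the genes of each role in the SFPQ_KO libraries (left) and the Cont libraries (right), 1 point per library and a bar for the mean and SD (n = 3 each), with axes starting at 0. In the mitotic panels SFPQ_KO replicate 1 lies lowest and SFPQ_KO replicate 2 near the Cont libraries, while in the G1/S entry panel the groups overlap.

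The genes that control the step from G2 into mitosis summed to 5.96, 17.6 and 11.4 TPM in SFPQ_KO cells, against 22.4, 18.8 and 18.01 TPM in Cont cells. Ccna2, a cyclin of S and G2 phase, had 0.816, 3.00 and 1.16 TPM in SFPQ_KO cells, against 4.92, 3.23 and 3.60 TPM in Cont cells. The groups did not overlap, though SFPQ_KO replicate 2 came near the lowest Cont library (log2 difference −0.96, SE 0.31, limma adjusted p = 0.323). Ccnb1, the main mitotic cyclin, had 0.492, 2.27 and 1.36 TPM in SFPQ_KO cells, against 3.60, 2.84 and 2.51 TPM in Cont cells, also without overlap (limma adjusted p = 0.353). Ccnb2, a second B-type cyclin, had 0.618, 4.54 and 2.15 TPM in SFPQ_KO cells, against 4.70, 4.85 and 4.32 TPM in Cont cells, so that SFPQ_KO replicate 2 was inside the Cont range. Foxm1, the transcription factor that activates many of the other genes here, had 0.912, 1.72 and 1.19 TPM in SFPQ_KO cells, against 2.67, 3.19 and 2.10 TPM in Cont cells. Its groups did not overlap and its SFPQ_KO libraries were the least spread of these cyclins and Foxm1 (log2 difference −0.69, SE 0.19, limma adjusted p = 0.266). Cdk1, the kinase that drives mitosis, differed least of all 22 mitotic genes. It had 3.12, 6.09 and 5.54 TPM in SFPQ_KO cells, against 6.497, 4.74 and 5.49 TPM in Cont cells, and only SFPQ_KO replicate 1 lay outside the Cont range (log2 difference −0.18, SE 0.23, 95% interval −0.73 to 0.36). Its sign turned in 1 setting, without SFPQ_KO replicate 1 (0.06).

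The mitotic kinases and checkpoint genes summed to 5.86, 15.6 and 10.5 TPM in SFPQ_KO cells, against 24.6, 18.3 and 20.7 TPM in Cont cells, so that every SFPQ_KO library lay below every Cont library. Plk1, a kinase needed for spindle poles and mitotic entry, had 1.18, 2.62 and 1.94 TPM in SFPQ_KO cells, against 4.52, 3.46 and 3.34 TPM in Cont cells (log2 difference −0.74, SE 0.21, limma adjusted p = 0.289). Aurkb, the kinase of the chromosomal passenger complex, had 0.639, 2.42 and 1.23 TPM in SFPQ_KO cells, against 3.69, 2.57 and 3.36 TPM in Cont cells (limma adjusted p = 0.327). Both kinases were separated between the groups. Bub1b, which encodes the checkpoint protein BubR1, had 0.720, 2.10 and 2.30 TPM in SFPQ_KO cells, against 3.45, 4.20 and 4.71 TPM in Cont cells. It was the one mitotic gene with its highest SFPQ_KO level in replicate 3, and SFPQ_KO replicates 2 and 3 both stayed well under the Cont range (log2 difference −0.97, SE 0.27, limma adjusted p = 0.268). Its partner Bub1, which was too low to be tested, had 0.110, 0.481 and 0.294 TPM in SFPQ_KO cells, against 0.988, 0.665 and 0.634 TPM in Cont cells. Aurka, the kinase of spindle poles, averaged 2.85 ± 0.84 TPM in SFPQ_KO cells and 4.39 ± 0.74 TPM in Cont cells, and Birc5, which encodes survivin, 2.46 ± 1.63 TPM in SFPQ_KO cells and 4.93 ± 1.78 TPM in Cont cells (SD, n = 3 each). For both, SFPQ_KO replicate 2 reached into the Cont range.

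Of the kinetochore and spindle genes, Cenpe, the kinetochore motor, had the lowest ratio of the 43 genes, 0.348. It had 0.111, 0.347 and 0.136 TPM in SFPQ_KO cells, against 0.621, 0.530 and 0.556 TPM in Cont cells. These levels are far under 1 TPM, and Cenpe was outside the test. Cenpf, a large kinetochore protein, had 0.614, 0.670 and 0.534 TPM in SFPQ_KO cells, against 0.876, 1.52 and 0.856 TPM in Cont cells, and its SFPQ_KO libraries were closer together, relative to their mean, than those of any other mitotic gene. Tpx2, which activates Aurora A on the spindle, had 1.06, 2.53 and 1.41 TPM in SFPQ_KO cells, against 3.91, 2.62 and 3.49 TPM in Cont cells (log2 difference −0.73, SE 0.23, limma adjusted p = 0.320). Kif11, the motor that pushes spindle poles apart, averaged 1.23 ± 0.52 TPM in SFPQ_KO cells and 2.02 ± 0.21 TPM in Cont cells without overlap. Nusap1, a microtubule bundler, averaged 0.659 ± 0.418 TPM in SFPQ_KO cells and 1.46 ± 0.52 TPM in Cont cells with overlap (SD, n = 3 each).

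The anaphase and cytokinesis genes included the most abundant of the mitotic list. Ube2c, the ubiquitin-conjugating enzyme of the anaphase-promoting complex, had 3.58, 7.70 and 5.47 TPM in SFPQ_KO cells, against 9.66, 8.22 and 8.29 TPM in Cont cells (log2 difference −0.61, SE 0.23, limma adjusted p = 0.375). Cdc20, the activator of that complex, had 2.43, 4.87 and 3.80 TPM in SFPQ_KO cells, against 8.41, 5.18 and 5.19 TPM in Cont cells (log2 difference −0.63, SE 0.25, limma adjusted p = 0.387). In both, SFPQ_KO replicate 2 was just under the lowest Cont library. Kif20a, a motor of the central spindle, averaged 2.43 ± 0.57 TPM in SFPQ_KO cells and 3.88 ± 0.56 TPM in Cont cells without overlap, and Prc1, which bundles the central spindle, 2.63 ± 1.48 TPM in SFPQ_KO cells and 4.38 ± 0.98 TPM in Cont cells with overlap (SD, n = 3 each). Both chromosome genes were widely spread among the SFPQ_KO libraries. Top2a, the topoisomerase that untangles replicated DNA, had 0.689, 4.74 and 1.77 TPM in SFPQ_KO cells, against 5.79, 4.09 and 4.27 TPM in Cont cells. Mki67, which coats mitotic chromosomes and is a standard marker of dividing cells, had 0.232, 1.23 and 0.522 TPM in SFPQ_KO cells, against 1.96, 1.53 and 1.64 TPM in Cont cells (log2 difference −0.75, SE 0.23, limma adjusted p = 0.311). For Mki67 all SFPQ_KO libraries lay below Cont, and for Top2a replicate 2 was inside the Cont range.

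The S-phase genes were closer to the Cont level. They summed to 182, 209 and 187 TPM in SFPQ_KO cells, against 218, 260 and 221 TPM in Cont cells, a ratio of mean sums of 0.827. On the deposited scale all 3 SFPQ_KO sums lay below all 3 Cont sums. Whether the S-phase sums stay apart under median-of-ratios scaling, which raises SFPQ_KO replicate 2 relative to every Cont library, was not tested. Left out in turn, single libraries moved the ratio of mean sums between 0.791 (without SFPQ_KO replicate 2) and 0.877 (without Cont replicate 2). SFPQ_KO replicate 1 was the lowest SFPQ_KO library for 10 of the 21 genes and replicate 3 for 9, so no one library was low throughout. Over the 14581 genes these were the lowest SFPQ_KO library for 4264 and 5222. Per gene, the median ratio was 0.806, with a range of 0.588 to 1.04, and 19 of the 21 genes were lower. Without overlap were 8 of the 21, against 14.8% of all genes, and 2 of the 21 under median-of-ratios scaling, against 8.67%.

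The genes of entry into S phase did not separate the groups. They summed to 33.9, 40.3 and 38.0 TPM in SFPQ_KO cells, against 36.9, 42.8 and 37.9 TPM in Cont cells, and none of the 4 was free of overlap. E2f1, an activator of S-phase genes, had 4.14, 7.02 and 8.77 TPM in SFPQ_KO cells, against 5.74, 6.07 and 8.72 TPM in Cont cells. E2f8, an E2F repressor that acts late in the cycle, had 17.6, 13.5 and 13.0 TPM in SFPQ_KO cells, against 9.23, 22.1 and 11.3 TPM in Cont cells, whose 3 libraries spanned the SFPQ_KO values on both sides. The log2 difference was −0.07 for E2f1 (95% interval −0.70 to 0.56) and 0.13 for E2f8 (95% interval −0.59 to 0.85), and the sign of both turned when single libraries were left out. Ccne1 and Ccne2, the E-type cyclins, averaged 14.3 ± 4.0 and 1.78 ± 0.22 TPM in SFPQ_KO cells, against 16.2 ± 3.7 and 1.95 ± 0.18 TPM in Cont cells (SD, n = 3 each). Their intervals also reached across 0.

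The licensing and helicase genes summed to 54.8, 61.3 and 55.0 TPM in SFPQ_KO cells, against 64.7, 73.7 and 65.6 TPM in Cont cells. All 6 subunits of the MCM helicase, Mcm2 to Mcm7, had a lower mean, with ratios from 0.746 for Mcm3 to 0.910 for Mcm7. Mcm4 had 7.34, 7.46 and 6.58 TPM in SFPQ_KO cells, against 8.67, 9.52 and 8.72 TPM in Cont cells, a small difference with little spread in either group (log2 difference −0.29, SE 0.10, limma adjusted p = 0.343). Mcm2 and Mcm5 were also without overlap, with 11.4, 13.6 and 15.1 TPM in SFPQ_KO cells and 15.5, 19.2 and 15.3 TPM in Cont cells for Mcm2. Mcm5 had 2.81, 3.23 and 2.61 TPM in SFPQ_KO cells, against 3.43, 4.36 and 3.43 TPM in Cont cells. Mcm3, Mcm6 and Mcm7 overlapped. Cdt1, which loads the helicase, averaged 3.73 ± 0.27 TPM in SFPQ_KO cells and 4.05 ± 0.02 TPM in Cont cells (SD, n = 3 each) and was separated by a narrow margin, with a ratio of 0.921. Its loading partner Cdc6 stood at 0.186 to 0.570 TPM in SFPQ_KO cells and 0.298 to 0.543 TPM in Cont cells, too low for the test. Gins2, a subunit of the GINS complex of the active helicase, averaged 2.28 ± 0.69 TPM in SFPQ_KO cells and 2.24 ± 0.49 TPM in Cont cells (SD, n = 3 each).

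The 4 fork genes and the 4 genes of nucleotide supply all had a lower mean in SFPQ_KO cells. Of these, 3 fork genes and 1 supply gene were separated, against 14.8% of all genes. Under median-of-ratios scaling only Rrm1 among them stayed separated, against 8.67% of all genes. Pcna, the sliding clamp of the polymerases and the most abundant of the 43 genes, had 40.5, 36.1 and 37.8 TPM in SFPQ_KO cells, against 39.5, 51.6 and 42.7 TPM in Cont cells, overlapping through SFPQ_KO replicate 1. Fen1, which trims Okazaki fragments, had 8.75, 10.3 and 8.61 TPM in SFPQ_KO cells, against 11.4, 11.01 and 11.2 TPM in Cont cells (log2 difference −0.26, SE 0.10, limma adjusted p = 0.387). Rfc4, of the clamp loader, and Lig1, which seals Okazaki fragments, were separated too, with ratios of 0.806 and 0.684. Rrm1, the large subunit of ribonucleotide reductase, had 17.2, 18.9 and 18.6 TPM in SFPQ_KO cells, against 20.6, 33.9 and 24.9 TPM in Cont cells. Its SFPQ_KO libraries were tightly grouped below a wide Cont range (log2 difference −0.48, SE 0.18, limma adjusted p = 0.361). The small subunit, Rrm2, had 15.0, 23.2 and 14.1 TPM in SFPQ_KO cells, against 22.6, 27.8 and 18.97 TPM in Cont cells, with overlap. Tk1, thymidine kinase, had 1.58, 5.60 and 1.503 TPM in SFPQ_KO cells, against 6.23, 4.08 and 4.46 TPM in Cont cells. Its SFPQ_KO replicates 1 and 3 were far below Cont. It had the lowest ratio of the class, 0.588, with SFPQ_KO replicate 2 inside the Cont range (log2 difference −0.74, SE 0.39, limma adjusted p = 0.482). Tyms, thymidylate synthase, averaged 1.58 ± 0.29 TPM in SFPQ_KO cells and 1.67 ± 0.13 TPM in Cont cells (SD, n = 3 each).

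**Figure D3:**
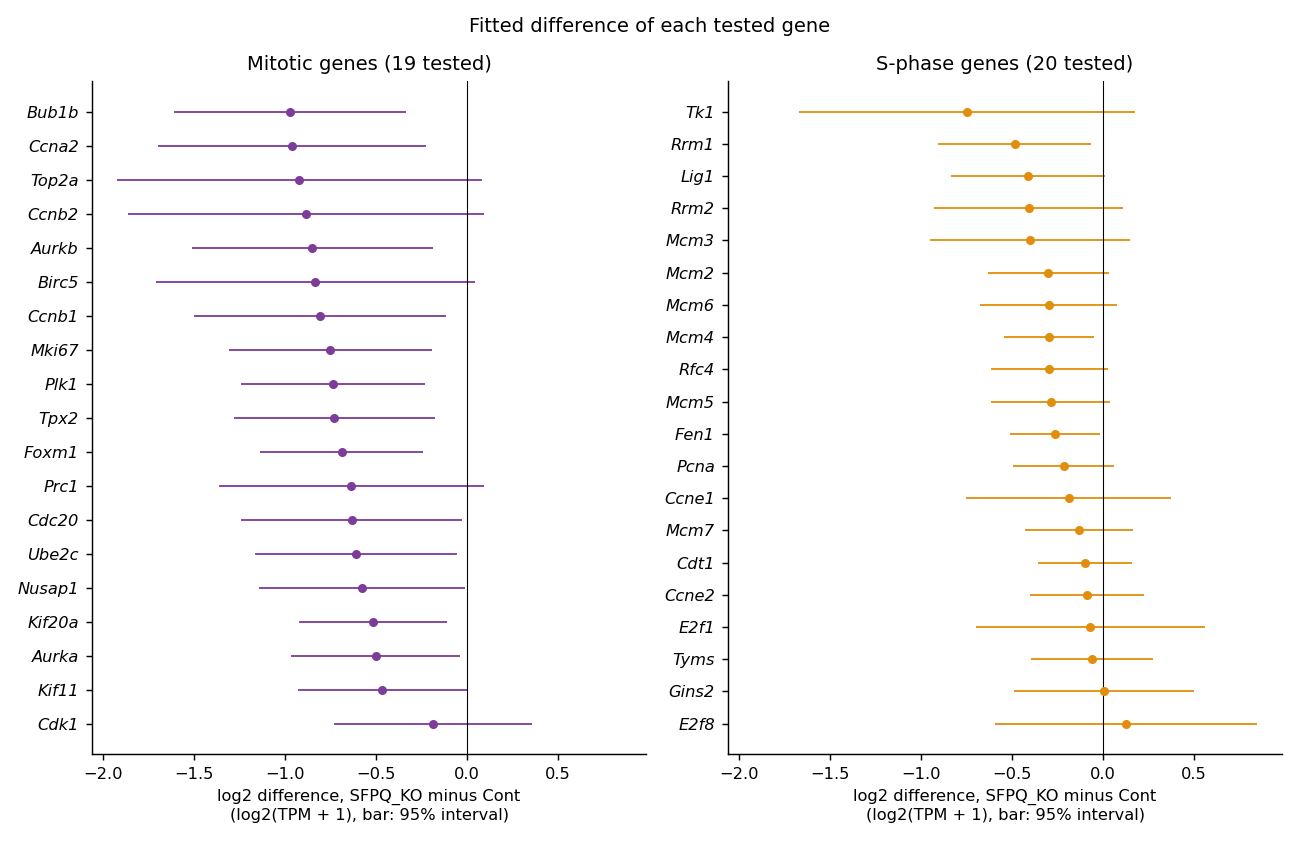
Log2 difference, SFPQ_KO minus Cont, of the 39 tested genes on the log2(TPM + 1) scale, with 95% intervals from limma (3 libraries per group), for mitotic and S-phase genes. The mitotic estimates all lie below 0, from −0.97 to −0.18, and the S-phase estimates run from −0.74 to 0.13.

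Set side by side, mitotic genes were lower by more than S-phase genes. The median ratio was 0.503 over the 22 mitotic genes and 0.806 over the 21 S-phase genes. On the log2(TPM + 1) scale, on which the difference of a gene at a low level comes out too small, the median difference was −0.66 for mitotic and −0.26 for S-phase genes, against −0.067 over the 14581 genes. The gap was seen in each SFPQ_KO library: relative to the Cont mean, the median mitotic gene stood at −1.07, −0.26 and −0.66 on the log2 scale in SFPQ_KO replicates 1, 2 and 3, and the median S-phase gene at −0.36, −0.03 and −0.23. In the Cont libraries the mitotic medians were 0.18, −0.08 and −0.08 and the S-phase medians −0.02, 0.03 and −0.04. In SFPQ_KO replicate 2 both classes were within 0.26 of the Cont mean, and the distance between the classes was wider in SFPQ_KO replicates 1 and 3. Without SFPQ_KO replicate 1 the median ratios were 0.606 for mitotic and 0.848 for S-phase genes, and without SFPQ_KO replicate 2 they were 0.368 and 0.776.

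Level and class overlap in this list. Of the 28 genes with a mean under 5 TPM, 20 were mitotic, and of the 15 at 5 TPM or more, 13 were of S phase. The median ratio was 0.543 over the low genes and 0.806 over the well-expressed ones. Separated in the lower direction were 17 of 28 and 6 of 15, against 14.3% of all genes at 0.25 to 5 TPM and 16.1% at 5 to 60 TPM. Within the low genes, the median ratio was 0.4998 over the 20 mitotic genes and 0.845 over the 8 S-phase genes. Within S phase it was 0.845 over the 8 low genes and 0.806 over the 13 well-expressed ones, so the median of low S-phase genes was not under that of well-expressed ones. The 2 well-expressed mitotic genes, Ube2c and Cdk1, had ratios of 0.640 and 0.882. Over all genes of the series the median ratio was 0.897 at 0.25 to 5 TPM and 0.945 at 5 to 60 TPM.

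**Figure D4:**
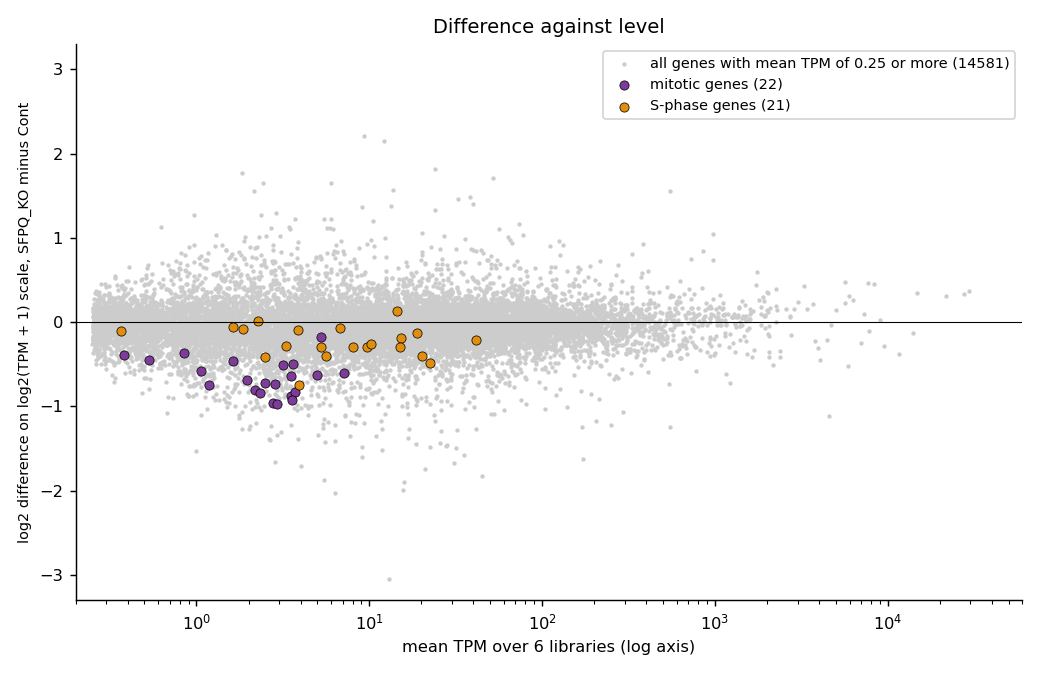
Log2 difference, SFPQ_KO minus Cont, on the log2(TPM + 1) scale against the mean TPM over the 6 libraries (log axis). Shown are all genes with a mean of 0.25 TPM or more (grey), the S-phase genes and the mitotic genes. The median difference is −0.66 for mitotic and −0.26 for S-phase genes, and both sets lie within the scatter of all genes.

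The direction was the same for most of 54 other mitotic genes. These were chosen by known role, but with earlier results of these data known, so they are not an independent check. Of the 54, 52 had a lower mean in SFPQ_KO cells and 2 a higher one (Ncaph2 and Cdc25b), with a median ratio of 0.556. In the lower direction 30 were separated, against 14.8% of all genes on the deposited scale. None of the 40 tested passed, and 20 of the 40 met the filter only with the help of Cont libraries. Tacc3, a spindle protein that works with Aurora A, had 3.12, 3.39 and 2.67 TPM in SFPQ_KO cells, against 6.10, 5.41 and 5.47 TPM in Cont cells. Here all 3 SFPQ_KO libraries were low, replicate 2 included (log2 difference −0.72, SE 0.12, limma adjusted p = 0.136). Ncapd2, a condensin subunit, had 8.96, 10.99 and 9.63 TPM in SFPQ_KO cells, against 13.4, 17.2 and 15.1 TPM in Cont cells (limma adjusted p = 0.192). Mad2l1, the checkpoint protein Mad2, and Ckap2, a spindle protein, were also separated (limma adjusted p = 0.178 and 0.230). SFPQ_KO replicate 1 was the lowest SFPQ_KO library for 47 of the 54 and replicate 2 the highest for 50, against 4264 and 5188 of the 14581 genes.

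Of 42 other S-phase genes, 36 had a lower and 6 a higher mean in SFPQ_KO cells. The median ratio was 0.869 over the 41 with a mean of 0.25 TPM or more, 15 were separated in the lower direction, against 14.8% of all genes, and none of the 35 tested passed. Rfc5, another subunit of the clamp loader, had 6.05, 5.62 and 5.24 TPM in SFPQ_KO cells, against 8.70, 8.03 and 8.56 TPM in Cont cells (log2 difference −0.51, SE 0.10, limma adjusted p = 0.168). Dbf4, the activator of the Cdc7 kinase, and Uhrf1, which helps copy DNA methylation, had ratios of 0.663 and 0.559. The list of 9 G1 genes held D-type cyclins, Cdk genes and also E2f2, E2f3 and E2f7. It had a median ratio of 0.9754, with 6 lower and 3 higher. Of the 9, 1 was separated (E2f3, 11.1%), a share near that of all genes. Cdk4, the partner of D-type cyclins, had 161, 150 and 160 TPM in SFPQ_KO cells, against 152, 188 and 148 TPM in Cont cells. E2f3, Cdk6 and E2f2 of the same list had ratios of 0.835, 1.10 and 0.816. E2f7, too low for the test, had a ratio of 0.494. Of 18 genes of cell cycle exit, 11 were lower (61.1%, near the 64.3% of all genes) and 7 higher, with a median ratio of 0.854. In the lower direction 6 were separated (33.3%), against 14.8% of all genes on the deposited scale. Cdkn2c, an inhibitor of Cdk4 and Cdk6, was one of them, with 11.2, 16.5 and 10.5 TPM in SFPQ_KO cells, against 22.4, 17.6 and 21.6 TPM in Cont cells (log2 difference −0.67, SE 0.18, limma adjusted p = 0.266). Tfdp2, E2f5 and Lin52, which encode parts of E2F and DREAM complexes, had ratios of 0.771, 0.744 and 0.785, all without overlap.

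**Figure D5:**
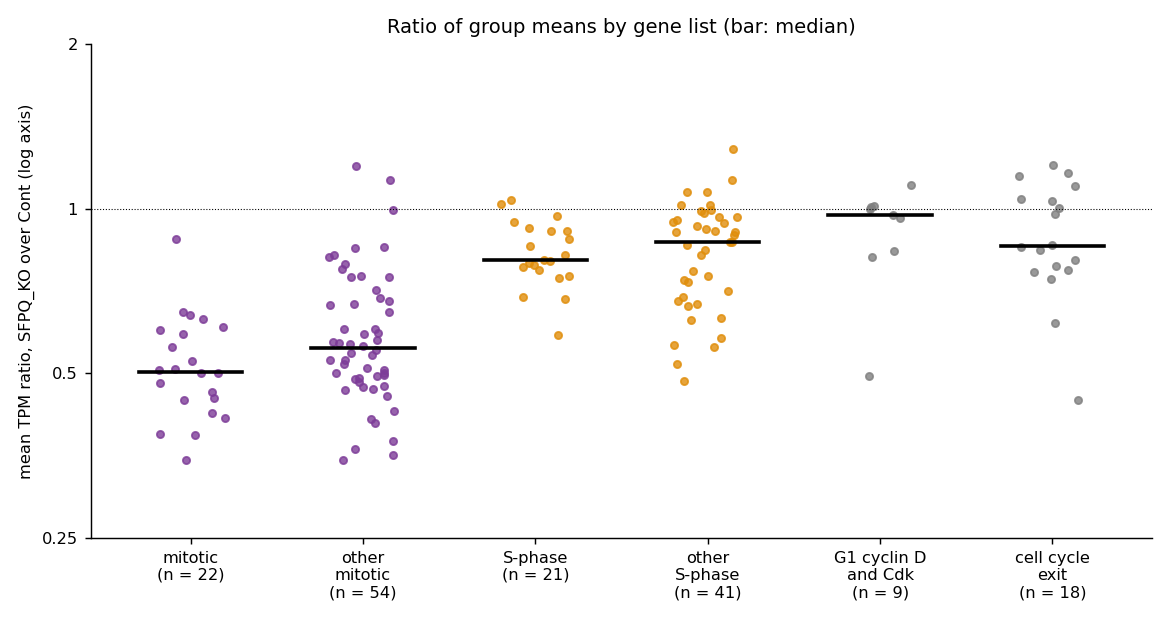
Ratio of mean TPM, SFPQ_KO over Cont (log axis), of each gene in the mitotic and S-phase lists, the other mitotic and other S-phase genes, the G1 genes and the exit genes, with a bar for each median. The medians of the 2 mitotic lists are 0.503 and 0.556 and those of the 2 S-phase lists 0.806 and 0.869. That of the G1 genes is 0.9754 and that of the exit genes 0.854.

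The proliferation genes are short. Their genomic spans ran from 2.97 to 61.0 kb with a median of 14.4 kb, and none of the 43 reached 100 kb, against 1645 of 13795 genes with a span and a mean of 0.25 TPM or more. The levels of some are uncertain, since no source used here says whether counting used strand. By the GENCODE annotation Ccne2, Mcm7, Gins2, Rfc4, Fen1, Lig1, Tk1, Ccna2, Nusap1, Cdc20, Ube2c, Kif20a and Prc1 overlap a protein-coding gene on the other strand. The partner of Ube2c is Tnnc2, the troponin C of fast muscle. Cdt1 and Foxm1 overlap one on the same strand. Pcna, Tyms, Ccnb1 and Ccnb2 have annotated pseudogenes that could share reads.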

How the data were processed

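Expression is in TPM as deposited by the authors, 1 value per RefSeq transcript accession in each of 6 libraries, summing to 1000000 per library. The aligner was STAR 2.4.1d and the genome mm10, per the submitters' processing notes. How transcripts were counted, with which annotation and whether by strand, is not given in the sources read here. Groups came from the sample titles. Of 34671 accessions, 30822 were named through a RefSeq table of GRCm38.p6 and 103 through GENCODE. The other 3746 (10.8%, holding 1.19% to 1.27% of TPM) kept their accession. TPM was summed per symbol, giving 34656 genes.

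The test of the difference between groups was limma's moderated test (version 3.58.1, R 4.3.3) of log2(TPM + 1) over the 12461 genes at 1 TPM or more in 3 libraries or more, with intensity trend and no block, 2-sided, with Benjamini-Hochberg adjustment at 0.05 over all of them. The method was first tested on simulated data. No count model was used, since TPM keeps no depth. Ratios are of group mean TPM. Groups are called separated or not overlapping where all 3 libraries of one lie beyond all 3 of the other. The other gene lists were chosen by known role, and all members and lists were chosen with earlier results of these data known. All 43 members are accounted for, and from each wider list up to 4 tested genes with the smallest p are named, except 1 that is not reported here. Markers named beside the library order, and exceptions in counts, were picked after their values were seen. Pold3, Wdhd1, Itga7 and Postn were not used here. Motifs were matched as exact letters in 250 bases upstream, without mismatches. Python 3.11.15, pandas 2.3.3 and matplotlib 3.10.9 were used for joining and plots. Alternatives covered the pseudocount, the filter, the scaling, the limma options, a replicate block, the threshold, each library left out, and the cuts of the level and class lists.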

Additional observations from a re-analysis of the deposited data

How the results depend on the processing

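No proliferation gene passed the adjusted threshold in any of 16 alternatives, and 31 of the 39 tested kept their sign in every alternative fit that held them (14 or 15 each, since a mean of at least 5 TPM left out the low ones). Over all genes the count called was 0 as reported, 28 (21 lower, 7 higher) at an adjusted p under 0.1, 13 with a pseudocount of 5, 7 with a mean of at least 5 TPM and 2 without the trend. Medians here are over the tested members only, 10 of them mitotic genes that passed the filter through Cont. The median log2 difference was then −0.46 over all 39, −0.27 over 20 S-phase, −0.73 over 19 mitotic, −0.66 over 24 low and −0.29 over 15 well-expressed genes. It was −0.99 for low genes with a pseudocount of 0.1. With a pseudocount of 5 it was −0.24 over the 39, −0.33 for mitotic and −0.30 for low genes. With a mean of at least 5 TPM it was −0.40 over the 2 mitotic genes left, both lower. Separated lower genes numbered 2 (S phase) and 9 (mitosis) under median-of-ratios scaling, and 8 to 13 and 15 to 21 with single libraries left out, while the share of all genes was then 17.7% to 24.2%. Leaving out single libraries moved these medians to between −0.62 and −0.34 (all tested), −0.32 and −0.22 (S phase), −0.94 and −0.51 (mitosis), −0.87 and −0.43 (low) and −0.33 and −0.23 (well-expressed). Under quantile normalization Ccne2 (0.0076), E2f1 (0.031), Cdt1 (0.0080) and Tyms (0.039) turned positive, as E2f1 (0.0056) did under median-of-ratios scaling, and the cause was not tested. With single libraries left out, signs changed within −0.37 to 0.019 (Ccne1), −0.27 to 0.19 (E2f1), −0.11 to 0.48 (E2f8), −0.12 to 0.19 (Gins2), −0.11 to 0.039 (Tyms) and −0.33 to 0.059 (Cdk1).

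Replicate numbers gave no sign of pairing the libraries. The deviations of same-numbered libraries correlated at −0.26, −0.25 and 0.05, and those of other pairs at −0.27 to 0.41. So few libraries cannot exclude pairing. A fit with the replicate block called 0 genes and 0 members, but so did the fit without it, so these counts cannot decide the question. Most mitotic genes lie at a few TPM or less, where the depth behind a value is unknown, and with 3 libraries per group whose SFPQ_KO members differ widely, differences of this size did not pass.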
